A study of Mus musculus with 11 samples.

Results

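Fox, Sox and Tbx genes encode 3 large families of developmental transcription factors, and their DNA methylation was compared in the pancreas of newborn mice whose dams had received amphetamine or saline. Members were taken by symbol from the promoter and gene tables on chromosomes 1 to 19: symbols that begin with Fox, a letter from a to s and a digit, with Sox and a digit, or with Tbx and a digit, leaving out symbols that end in os. The rule found 73 promoters of 24391 in the promoter table (38 Fox, 21 Sox and 14 Tbx) and 77 gene regions of 25802 in the gene table (41 Fox, 22 Sox and 14 Tbx). A gene region runs from the start to the end of the gene and is called the gene body here. All 73 promoters belong to genes that also have a gene body row, and Foxd4, Foxj3, Foxn1 and Sox5os4 have a gene body row only. Of the promoters, 5 belong to noncoding transcripts beside Sox5 and Tbx3 (Sox5it, Sox5os2, Sox5os3, Tbx3os1 and Tbx3os2), which left 68 promoters and 71 gene bodies of transcription factor genes.

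All mice were wild-type C57BL/6N offspring analysed on postnatal day 0. The amphetamine group had 5 mice (3 females and 2 males), whose dams were injected with 10 mg/kg on embryonic days 14.5, 15.5 and 16.5. The saline group had 6 mice (3 females and 3 males). Whole pancreas was used, so that acinar, endocrine, ductal and stromal cells contributed to every value, and a change in the share of a cell type cannot be told apart from a change within it. Which litter each pup came from was not given in the sources used here, so that the spread between mice may include litter effects.

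DNA methylation was measured by reduced representation bisulfite sequencing, in which DNA is cut with MspI (CCGG) and TaqI (TCGA) and the CpG sites near the cuts are read. Each promoter window covers 1500 bp before to 500 bp after the gene start. The files give, for each group and region, the mean methylation level, its SD, the lowest and highest mouse and the read coverage, and values of single mice were not analysed here. The files do not define coverage, which was taken from its size as the mean per mouse of reads added up across all CpG sites in the region, where a read over several sites counts at each. The median over the 73 promoters was 445.0 in the amphetamine and 357 in the saline group, and the median ratio of amphetamine to saline coverage was 1.24, as for all autosomal promoters (1.24). In 70 promoters and 73 gene bodies every mouse had reads. The windows of Tbx3 and Tbx3os1 overlap by 303 bp and those of Sox5os3 and Sox5it by 1147 bp, so that they share reads. As a check of the tissue, the acinar promoters with a row (Cel, Cela1 and Pnlip) were at 57.2% to 90.3% in saline mice and the germ cell promoters Sycp1, Ddx4 and Dazl at 68.0% to 84.8%, so that promoter levels of these markers did not separate pancreas from other tissue.

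Fox proteins bind DNA through a forkhead domain, Sox proteins through an HMG box and Tbx proteins through a T-box. Many of them lay down organ fields in the embryo and later maintain cell identity. In the pancreas, Foxa1 and Foxa2 open chromatin at endodermal enhancers and act upstream of Pdx1, Sox9 keeps progenitors and later duct cells, and Sox17 marks early endoderm. CpG-rich promoters of developmental regulators are as a rule free of methylation, whereas bodies of transcribed genes are often methylated.

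The sequences immediately before the start sites show how far the members differ in CpG content, with promoters of low and of high methylation side by side. RefSeq promoter sequences (GRCm38.p6) were found for 47 of the 73 symbols. Each run below has 200 bases, ends 50 bases before the RefSeq start site and is written 5′ to 3′ on the strand of the gene, with each CpG in capitals. The first 4 had saline promoter levels of 5.80%, 18.05%, 21.3% and 8.30%, and the last 3 of 95.2%, 84.7% and 92.7%. These are levels of the whole promoter window and not of the printed CpG sites. The Foxa2 and Tbx19 runs hold 1 MspI site each, and the other runs hold no MspI or TaqI site.
Foxa1 (chr12:57546162-57546361, minus strand): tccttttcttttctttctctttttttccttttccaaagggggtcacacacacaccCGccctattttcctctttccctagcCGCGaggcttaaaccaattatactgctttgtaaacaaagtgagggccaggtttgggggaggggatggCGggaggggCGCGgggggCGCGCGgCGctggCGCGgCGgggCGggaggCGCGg
Foxa2 (chr2:148047020-148047219, minus strand): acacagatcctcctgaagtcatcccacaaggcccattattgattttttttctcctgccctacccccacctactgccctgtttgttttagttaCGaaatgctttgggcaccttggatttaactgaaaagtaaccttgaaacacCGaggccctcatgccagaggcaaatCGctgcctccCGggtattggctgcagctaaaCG
Sox4 (chr13:28953750-28953949, minus strand): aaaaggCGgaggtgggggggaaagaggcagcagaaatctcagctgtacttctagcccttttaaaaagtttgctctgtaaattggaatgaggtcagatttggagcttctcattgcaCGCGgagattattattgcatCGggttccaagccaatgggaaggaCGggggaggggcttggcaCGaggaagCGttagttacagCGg
Foxi2 (chr7:135410117-135410316, plus strand): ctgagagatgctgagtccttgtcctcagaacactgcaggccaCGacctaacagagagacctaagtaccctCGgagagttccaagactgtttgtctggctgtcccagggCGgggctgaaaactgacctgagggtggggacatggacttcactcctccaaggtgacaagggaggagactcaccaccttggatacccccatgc
Foxi1 (chr11:34208140-34208339, minus strand): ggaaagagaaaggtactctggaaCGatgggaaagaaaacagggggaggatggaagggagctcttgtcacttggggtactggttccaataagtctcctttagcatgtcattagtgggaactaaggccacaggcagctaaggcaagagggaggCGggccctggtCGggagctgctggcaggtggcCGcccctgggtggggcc
Foxn3 (chr12:99450125-99450324, minus strand): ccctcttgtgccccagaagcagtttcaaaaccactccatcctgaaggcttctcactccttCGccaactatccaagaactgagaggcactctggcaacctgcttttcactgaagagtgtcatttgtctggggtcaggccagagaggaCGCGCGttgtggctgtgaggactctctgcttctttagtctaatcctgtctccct
Tbx19 (chr1:165160824-165161023, minus strand): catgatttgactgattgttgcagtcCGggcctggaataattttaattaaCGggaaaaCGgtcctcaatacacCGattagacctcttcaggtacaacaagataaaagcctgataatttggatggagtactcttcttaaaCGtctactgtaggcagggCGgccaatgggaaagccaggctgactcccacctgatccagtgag
The Foxa1 run holds 16 CpG sites, whereas the Foxi1 and Foxn3 runs hold 4 each, the median over all 32851 RefSeq promoters of the mouse. Foxa2, at 5 CpG sites, and Foxi2, at 3, are as poor in CpG in this stretch as the methylated promoters.

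Promoters of all 3 families were mostly unmethylated in saline mice. The median saline level was 3.35% over 38 Fox promoters, 4.36% over 21 Sox promoters and 4.84% over 14 Tbx promoters, against 6.67% over all 23176 autosomal promoters. Of the 73 promoters 55 (75.3%) were under 10%, compared with 54.5% of all autosomal promoters, and 9 (12.3%) were over 50%, compared with 31.1%. The lowest values among promoters with reads in every mouse were in Foxd1 (0.982%), Foxo3 (1.01%), Tbx15 (1.03%) and Sox12 (1.08%). At Tbx15 the lowest coverage of a saline mouse was 4. Foxd1 acts in kidney stroma, Foxo3 in stress and insulin signalling and Tbx15 in skeletal patterning. Tbx20, a cardiac factor, was listed at 0% in both groups, from 3 mice each and a coverage of 14.6 and 14.8.

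Gene bodies separated the members far more than promoters did. The median saline level was 9.02% over 41 Fox bodies, 18.2% over 22 Sox bodies and 15.8% over 14 Tbx bodies, whereas that of all 24521 autosomal gene bodies was 51.3%. Without the noncoding transcripts the Sox median was 5.51% over 18 genes. In 31 of 73 genes (42.5%) both promoter and body were under 10%, compared with 13.6% of all autosomal genes with both rows. In 24 genes only the promoter was, compared with 9532 of the 19832 autosomal genes with both rows. The body was lower than the promoter in 25 (34.2%), compared with 20.3% of those autosomal genes.

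**Figure D1:**
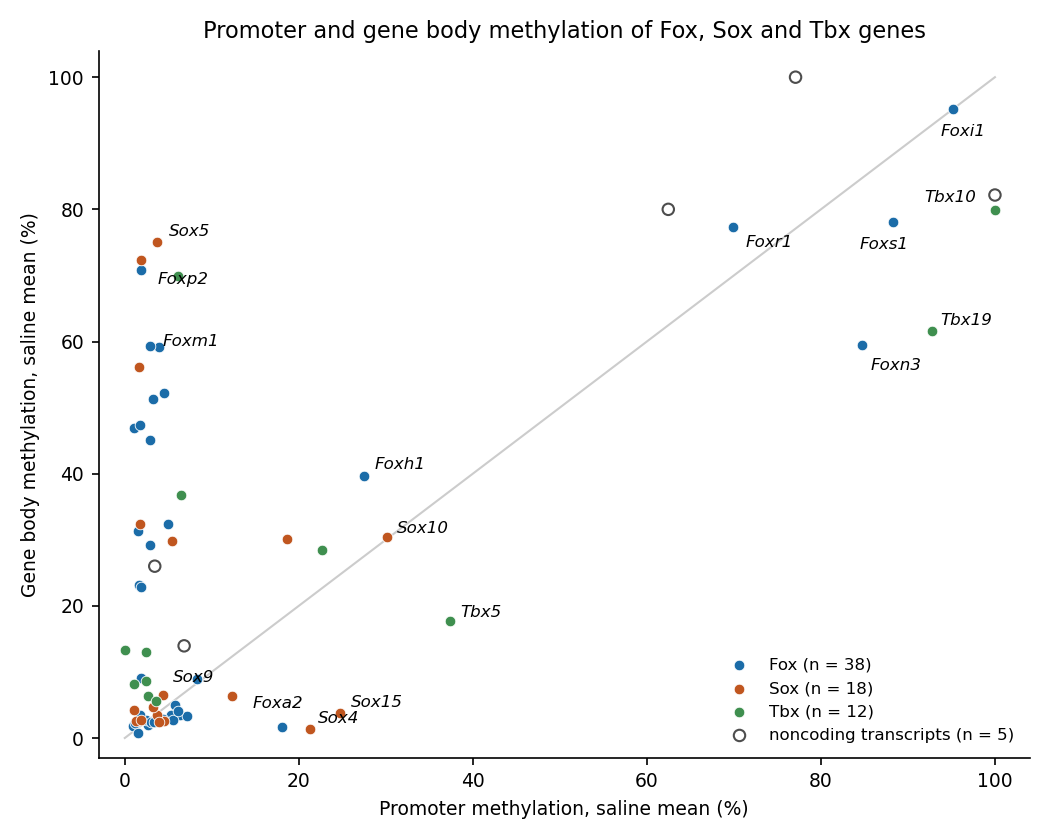
Mean methylation of the gene body (vertical axis, %) against that of the promoter (horizontal axis, %) in saline mice, with 1 point per gene, colored by family, and open circles for noncoding transcripts; the grey line marks equal levels. Most genes lie at the left edge with promoters under 10%, their bodies spread from 0.778% to 75.1%, and Foxi1, Foxs1, Foxn3, Foxr1, Tbx10, Tbx19 and 3 noncoding transcripts stand apart on the right.

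Body levels tended to follow gene length, with exceptions. Among the 43 transcription factor genes shorter than 10 kb the median body level was 3.47%, and 33 of them (76.7%) were under 10%. Among the 28 longer genes the median was 34.6%, and 3 were under 10%. The split was seen in Fox (3.15% against 47.1%) and Sox (4.03% against 44.3%) and not in Tbx, where 4 short genes had a median of 39.3% and 8 longer ones of 15.5%. All autosomal genes had nearly equal medians, of 50.2% for genes under 10 kb and 51.6% for longer ones. Spearman's rho between length and body level was 0.55 over 71 genes and 0.05 over all 24521 autosomal gene bodies. These are correlations across genes of the same mice, and short bodies share reads with their own promoter window. Body levels of longer genes also include the gene start. In 5 kb tiles inside the gene and outside the promoter, the 3 longer genes under 10% were higher. These were Foxo6 (50.8%), Tbx15 (48.9%) and Tbx18 (52.9%). The compact genes include Foxi3, the lowest Fox body at 0.778%, Sox4 at 1.35% and Foxa2 at 1.72%. Foxi3 acts in the developing ear and teeth. The lowest Tbx body was that of Tbx2 at 5.66%, a repressor with roles in heart and limb. Among the longer transcription factor genes the highest were Sox5 at 75.1% over 953.55 kb and Foxp2 at 70.8% over 540.63 kb. The transcription factor bodies above that of Sox5 were nonetheless in genes under 10 kb. They were Foxi1 (95.2%), Tbx10 (79.9%), Foxs1 (78.1%) and Foxr1 (77.4%).

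In FoxB, FoxC, FoxD, FoxE, FoxF, FoxL and FoxQ every body was between 1.85% and 4.06%. Every FoxP body was between 47.3% and 70.8%, and every FoxN body between 23.1% and 67.4%. SoxB and SoxC bodies, from neural progenitor and differentiation factors, were between 1.35% and 6.40%, whereas SoxD bodies (Sox5, Sox6 and Sox13) were between 32.4% and 75.1%. Promoters of FoxP and SoxD were nonetheless all under 4%, at 1.74% to 3.30% and 1.596% to 3.69%.

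Low methylation extended beyond the promoter window. The genome was read in tiles of 5 kb, and neighboring tiles under 15% in saline mice that held the gene start were joined into a run. Of the 73 starts, 39 (53.4%) lay in a run of 10 kb or more, compared with 11.6% of 22829 autosomal genes and with 17.8% of 12782 autosomal genes whose promoter overlaps a CpG island. Runs of 20 kb or more were found at 11 starts (15.1%) and at 1.03% of autosomal genes. Tbx3 and the noncoding Tbx3os1 start in the same run, which was counted for each. Without noncoding transcripts, 38 of 68 starts (55.9%) lay in a run of 10 kb or more and 10 (14.7%) in one of 20 kb or more. Among the long runs were those of Tbx15 (35 kb), Sox2 (30 kb), and Sox1 and Foxa1 (25 kb each). Sox2 and Sox1 maintain neural progenitors, and Foxa1 is an endodermal pioneer factor. Of 12 Tbx genes 5 (41.7%) had a run of 20 kb or more, of 38 Fox genes 3 (7.89%) and of 18 Sox genes 2 (11.1%). With tiles under 10% in place of 15% the Tbx count fell to 3 of 12 (25%), and those of Fox and Sox stayed at 3 and 2.

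**Figure D2:**
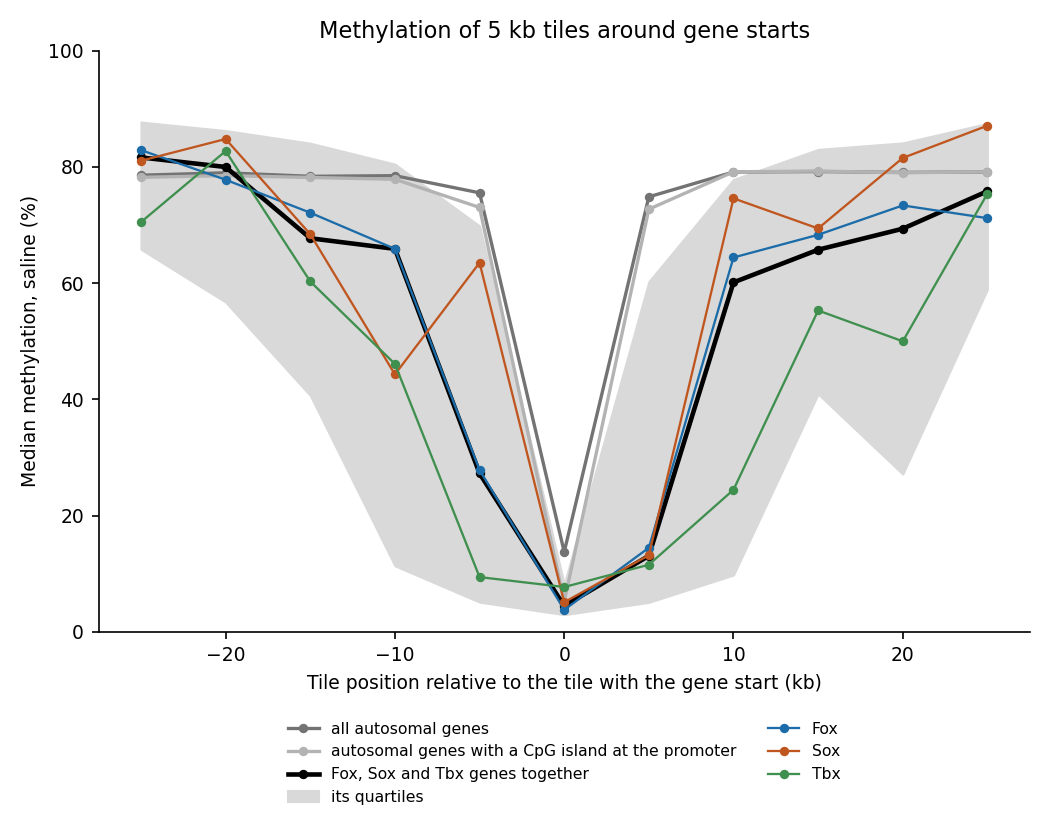
Median methylation in saline mice (vertical axis, %) of 5 kb tiles by position from the tile that holds the gene start (horizontal axis, kb, negative upstream), for the 68 transcription factor genes with a promoter row, each family, all autosomal genes and those with a CpG island; the grey band spans the quartiles of the 68 genes. At 5 kb upstream the median was 27.3% over the 55 tiles present for the 68 genes and 75.6% over 15788 tiles of all autosomal genes. At 5 kb downstream it was 13.1% (60 tiles) and 74.9% (15934 tiles).

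The order of the family medians in the flanks changed with the distance. In the tile 5 kb upstream the median was 9.43% for Tbx (11 tiles), 27.8% for Fox (30 tiles) and 63.5% for Sox (14 tiles). In the tile 10 kb upstream Sox was lowest (44.3%, against 46.1% for Tbx and 65.9% for Fox), and 5 kb downstream the medians were 11.6% for Tbx, 13.2% for Sox and 14.5% for Fox. In the tile 10 kb downstream it was 24.5% for Tbx, 64.4% for Fox and 74.6% for Sox. By 25 kb on either side every family median was between 70.5% and 87.1%, with autosomal medians of 78.6% and 79.1%. These medians are descriptions over few tiles and were not tested.

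Promoters with high methylation were poor in CpG. The 2 kb windows of the 68 transcription factor genes held a median of 107.5 CpG sites, against 59 over all autosomal promoters, and 57 of them (83.8%) overlapped a CpG island of the island table, against 55.4%. The 6 transcription factor promoters over 50% held a median of 33 CpG sites, whereas the 53 under 10% held 120.0. Spearman's rho between the CpG observed/expected ratio and promoter methylation was -0.55 over the 68 genes and -0.69 over all autosomal promoters, across genes of the same mice. Every window held an MspI site (99.9% of autosomal promoters), with a median of 11 in the transcription factor genes and 6 in all, and 86.8% held a TaqI site, against 82.6%.

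**Figure D3:**
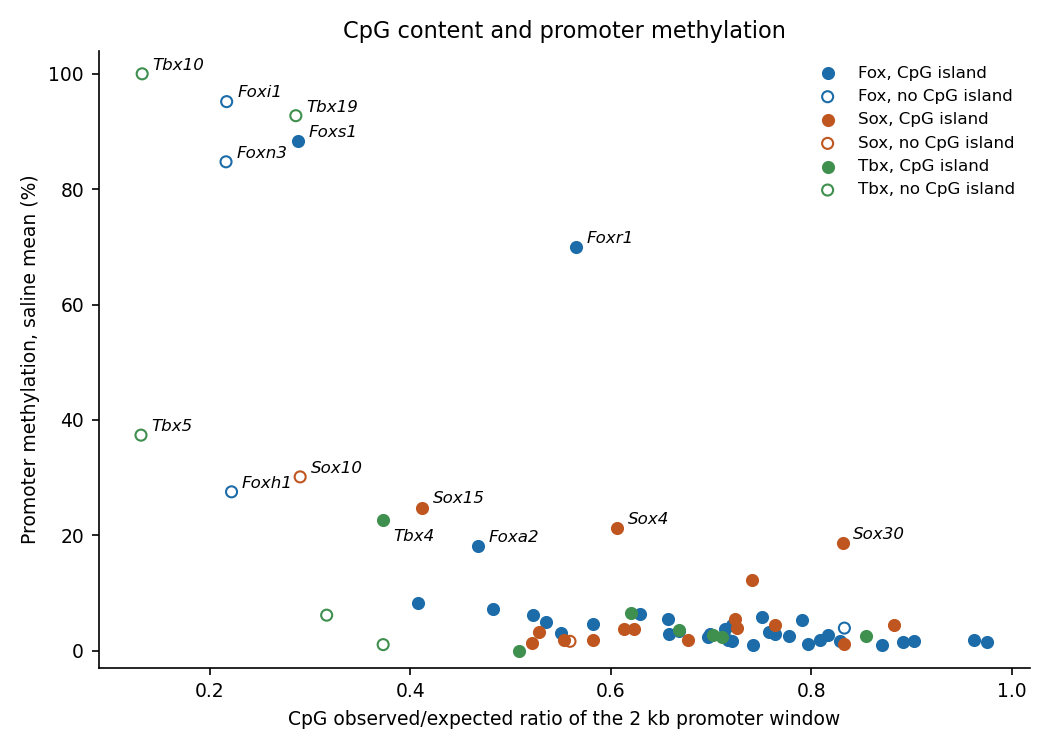
Promoter methylation in saline mice (vertical axis, %) against the CpG observed/expected ratio of the window (horizontal axis), 1 point per gene, colored by family; filled points overlap a CpG island. Promoters over 50% other than that of Foxr1 (ratio 0.57) lie below a ratio of 0.30, and Tbx5, Foxh1 and Sox10 are intermediate at 37.3%, 27.5% and 30.1%.

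The 6 methylated transcription factor promoters were those of Foxi1, Foxs1, Foxn3, Foxr1, Tbx10 and Tbx19. Foxi1, a regulator of proton-secreting cells in kidney and inner ear, was at 95.2% ± 6.24 (SD, n = 6) in saline mice, and its body had the same level because the same reads fall in both regions. Foxs1, which is expressed in neural crest and pericytes, was at 88.3% ± 8.92 (n = 6), and Tbx19, the corticotroph factor of the pituitary, at 92.7% ± 9.84 (n = 6). Foxr1 was at 69.9% ± 6.97 (n = 6). Tbx10 was at 100% in the only 2 saline mice with reads. Foxn3 was at 84.7% ± 11.3 (n = 6) at chr12:99449612-99451611, which lies at the start of 1 of its 3 annotated transcript starts. A CpG island at chr12:99392017-99393399, 57.4 kb inside the gene and at another annotated start, was at 1.28%. The promoter row covers 1 start site of Foxn3 and not the others. Some of these levels include thinly read mice, with a lowest saline coverage of 3 at the Foxn3 and 12 at the Foxi1 promoter.

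Another 6 transcription factor promoters had saline levels between 20% and 50%: Foxh1, Sox10, Sox15, Sox4, Tbx4 and Tbx5. Sox4, which acts in endocrine differentiation, was at 21.3% ± 5.74, with every saline mouse between 16.3% and 31.9%, although its body was at 1.35%. Its window overlaps 1 CpG island, which was at 2.30% in amphetamine and 1.47% in saline mice. Foxa2, just under 20%, also had a higher mean in the promoter (18.05%) than in the body (1.72%). Unlike at Sox4, its saline promoter values ran from 3.16% to 50%.

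The pancreas regulators of these families, chosen for their known function, were Foxa1, Foxa2, Foxm1, Foxo1, Foxp1, Foxp2, Foxp4, Sox4, Sox5, Sox6, Sox9, Sox11 and Sox17. Their promoters had a median saline level of 3.30% (n = 13), against 3.79% over the other 55 transcription factor promoters. Their bodies had a median of 22.9%, against 8.95% over the other 58. The regulators range from short genes such as Foxa2 (4.09 kb) to long ones such as Sox5 (953.55 kb) and Sox6 (567.40 kb). Gene length was not taken into account in this comparison. The starts of all 13 lay in a low run, 8 (61.5%) in a run of 10 kb or more, compared with 42 and 30 (54.5%) of the other 55. With tiles under 10%, 12 of the 13 lay in a run, Sox6 being the exception. For the other pancreas transcription factors on a list of 27, such as Pdx1 and Ptf1a, the medians were 3.84% over 25 promoters and 7.59% over 27 bodies.

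Foxa2 had the widest spread of the 13 promoters. At chr2:148046470-148048469 the saline mice had a mean of 18.05% ± 17.05 and ran from 3.16% to 50%. Coverage was 150.8 in saline and 248.2 in amphetamine mice, and the lowest of a single mouse was 33 and 137. The amphetamine mice had a mean of 10.4% ± 7.34 and ran from 2.56% to 21.8%, so that every amphetamine mouse lay below the highest saline mouse and the groups overlapped. The difference, amphetamine minus saline, was -7.69 percentage points (95% confidence interval -24.9 to 9.56, adjusted p = 0.93, limma). The body of Foxa2 was at 3.19% ± 0.852 in amphetamine and 1.72% ± 1.37 in saline mice, a difference of 1.48 points (-0.17 to 3.13, adjusted p = 0.98, limma).

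Sox9 varied little. Its promoter at chr11:112780724-112782723 was between 2.32% and 4.97% in the amphetamine and between 2.95% and 5.10% in the saline mice, a difference of -0.30 points (-1.67 to 1.06). Its body was at 6.82% ± 1.33 and 6.52% ± 1.18, a difference of 0.30 points (-1.50 to 2.09). Sox17 was at 1.501% ± 1.62 in amphetamine and 1.28% ± 1.47 in saline promoters (difference 0.22 points, -1.77 to 2.21).

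Foxa1 was at 2.42% ± 1.36 in the amphetamine and 5.80% ± 4.60 in the saline promoter, with 1 or more saline mice up to 14.4% and amphetamine mice up to 3.95% (difference -3.37 points, -7.88 to 1.13). The promoter of Sox4 differed by -1.81 points (-10.8 to 7.17), and those of Foxm1, Foxo1, Foxp1, Foxp2, Foxp4, Sox5, Sox6 and Sox11, differed by between -0.79 and 0.87 points. Long bodies gave the narrowest values at high levels. Sox5 was at 75.04% ± 1.31 in amphetamine and 75.1% ± 1.22 in saline mice, at a coverage of 11795 and 9864 (difference -0.04 points, -3.27 to 3.20). Foxm1, which drives beta-cell proliferation, had a wider body, at 54.8% ± 2.84 and 59.3% ± 14.1 (difference -4.52 points, -18.2 to 9.20).

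**Figure D4:**
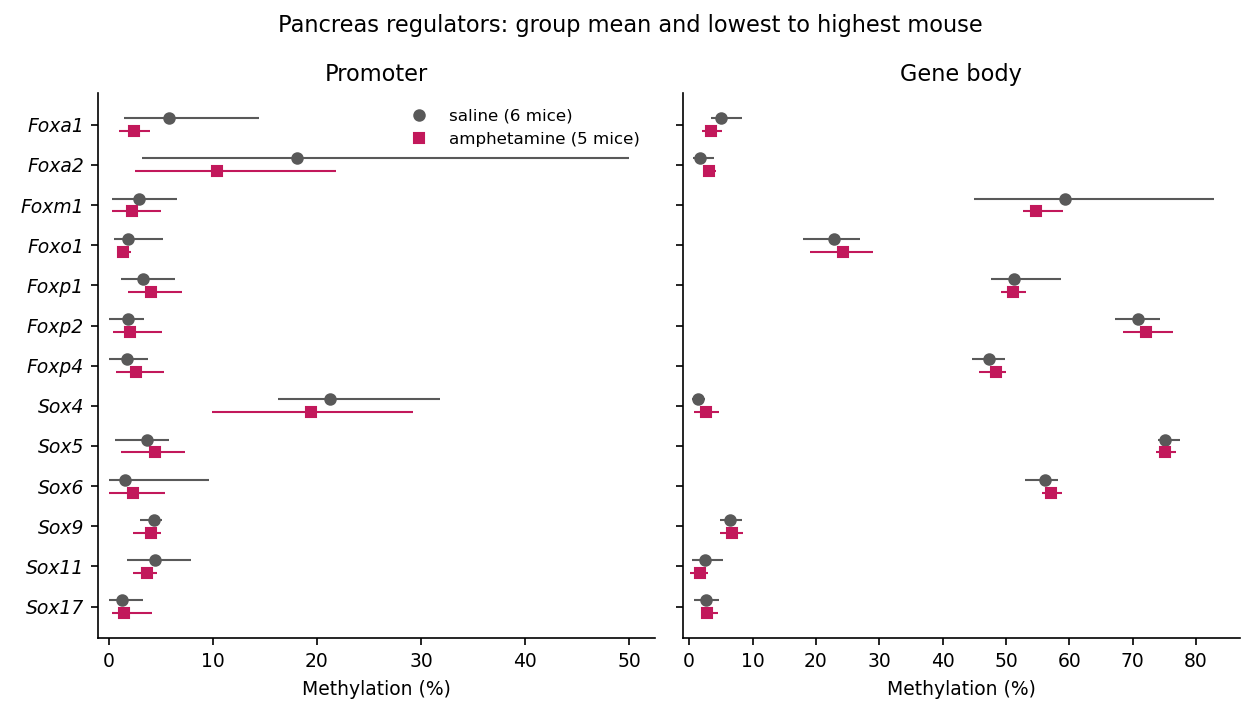
Methylation (horizontal axes, %) of the 13 pancreas regulators in promoters (left) and gene bodies (right); points are the means of 6 saline (circles) and 5 amphetamine (squares) mice and lines run from the lowest to the highest mouse. The groups overlap in every region, and the widest line is that of the Foxa2 promoter in saline mice, from 3.16% to 50%.

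No member passed the treatment test in promoters or bodies. The test was limma's moderated test rebuilt from group means and SDs, 2-sided, with Benjamini-Hochberg adjustment over the whole table. At an adjusted p under 0.05, 0 of 73 promoters passed, with 3 of 24360 over the table (0.0123%), and 0 of 77 bodies, with 5 of 25779 (0.0194%). At an unadjusted p under 0.05, 1 promoter passed (4.56% of the table) and 3 bodies (4.34% of the table), shares of 1.37% and 3.90% of the members. Groups without overlap were found in 0 of 70 promoters and 0 of 73 bodies with reads in every mouse, with 0.407% and 0.322% of autosomal rows. The median difference was 0 points over the 73 promoters, with 36 higher and 35 lower in the amphetamine group, and -0.14 points over the 77 bodies, with 34 higher and 42 lower. The same medians over all autosomal rows were 0 and -0.11 points. The 95% confidence interval stayed within 5 points on either side of 0 in 37 promoters and 41 bodies. Over all autosomal rows it did so in 9061 of 23176 promoters and 3641 of 24521 bodies. In the other members the data leave larger differences possible.

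The quartiles of the promoter differences ran from -1.31 to 0.52 points in Fox, -1.52 to 0.69 in Sox and -2.59 to 1.72 in Tbx. The quartiles of the body differences ran from -1.27 to 1.12 points in Fox, -2.55 to 0.28 in Sox and -0.69 to 1.63 in Tbx. Of the 73 genes with both rows, 36 (49.3%) had promoter and body differences of the same sign and 34 of opposite sign. Of all autosomal genes with both rows, 59.0% had the same sign. The difference was under 2 points in either direction in 47 of 73 promoters (64.4%), compared with 54.3% of all autosomal promoters.

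**Figure D5:**
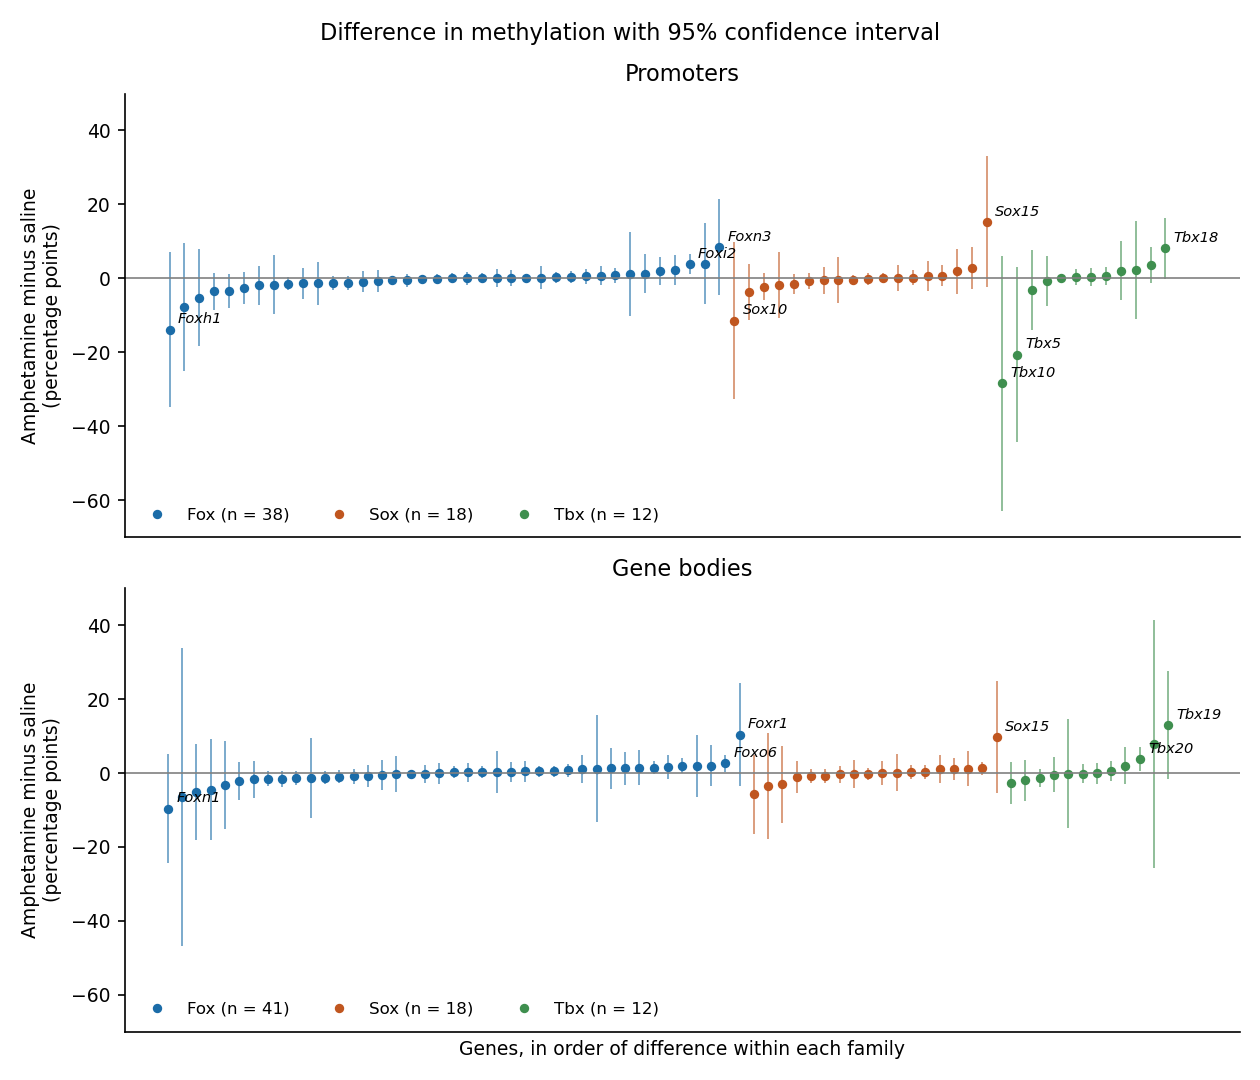
Amphetamine minus saline difference (vertical axes, percentage points) of each transcription factor gene with its 95% confidence interval, in promoters (top) and gene bodies (bottom), ordered within each family; named genes passed an unadjusted p of 0.05 or differed by over 8 points. Most points lie close to 0. The wide intervals belong to regions with a large spread between mice, such as Foxh1, or with few mice, such as the Tbx10 promoter with 2 saline mice.

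Foxi2 was the promoter under an unadjusted p of 0.05. Foxi2 acts in ectodermal development. Amphetamine mice were at 12.3% ± 1.62 (9.82% to 13.7%) and saline mice at 8.30% ± 1.90 (5.65% to 10.97%), so that the groups overlapped slightly. The difference was 3.97 points (1.22 to 6.72, adjusted p = 0.93, limma). The CpG island inside this window (chr7:135410479-135410801) was at 6.41% ± 1.74 in amphetamine and 1.43% ± 1.63 in saline mice, with every amphetamine mouse from 3.63% to 8.16% above every saline mouse (0% to 3.27%). Its adjusted p was 0.92. The island and the promoter share reads, and the body of Foxi2 differed by 1.22 points (-4.34 to 6.79).

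The 3 bodies under an unadjusted p of 0.05 were those of Foxo6, Tbx20 and Sox5os3. Foxo6, a forkhead factor of the insulin pathway, was at 11.7% ± 2.19 in amphetamine and 9.02% ± 0.980 in saline mice (difference 2.67 points, 0.39 to 4.95, adjusted p = 0.98, limma). Its coverage was 2073 and 1828, and 1 of its 3 CpG islands (chr4:120267947-120269173) was at 7.33% and 2.63%, from part of the same reads. The other two were at 4.07% against 2.06% and at 1.93% against 2.001%. Tbx20 was at 17.0% ± 3.42 and 13.3% ± 1.23 (difference 3.76 points, 0.47 to 7.06, adjusted p = 0.98, limma). The noncoding Sox5os3 was at 69.9% ± 11.5 and 82.2% ± 7.24 (difference -12.2 points, -24.3 to -0.19, adjusted p = 0.98, limma).

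Large differences were found in regions where mice varied widely within a group. Tbx5, a cardiac and forelimb factor, was at 16.7% ± 5.54 in the amphetamine promoter and 37.3% ± 23.8 in the saline promoter, where mice ran from 15.3% to 71.7% (difference -20.6 points, -44.3 to 3.06). Sox10, the neural crest factor, was at 18.7% ± 7.44 and 30.1% ± 20.8, with saline mice from 7.58% to 67.9% (difference -11.4 points, -32.5 to 9.76). Foxh1, a partner of nodal signalling, was at 13.7% ± 14.8 and 27.5% ± 17.4, at a coverage of 27.2 and 51.3 (difference -13.8 points, -34.7 to 7.05). In all 3 the amphetamine mice lay within or below the range of the saline mice. For Tbx10 the difference of -28.3 points rests on 2 saline mice.

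Other promoters were higher in the amphetamine group. Sox15 was at 40.1% ± 16.7, against 24.8% ± 7.96 in saline mice (difference 15.3 points, -2.39 to 33.0). Sox15 acts in muscle progenitors and placenta. Tbx18, an epicardial and ureter factor, was at 10.9% ± 8.47, against 2.72% ± 4.27 (difference 8.14 points, -0.04 to 16.3), whereas the CpG island overlapping its promoter was at 2.22% and 2.62%. Foxn3 was 8.47 points higher (-4.52 to 21.5). Among the bodies with reads in every mouse, Tbx19 had the highest difference (74.7% ± 12.1 against 61.6% ± 10.7, difference 13.03 points, -1.50 to 27.6), and Foxr1 was 10.4 points higher (-3.57 to 24.3). The lowest body difference of a transcription factor gene was that of the thymic factor Foxn1 (57.8% ± 14.1 against 67.4% ± 9.06, difference -9.61 points, -24.4 to 5.19). Of the Sox bodies with reads in every mouse the lowest difference was that of Sox5os3, given above, and the highest that of Sox4 (1.24 points, -0.48 to 2.96). Larger values came from bodies with reads in 3 amphetamine and 5 saline mice, those of the noncoding Sox5os2 (-21.5 points, -94.0 to 50.9) and of Sox15 (9.72 points, -5.37 to 24.8). In Tbx the lowest was that of Tbx21, the T helper factor (-2.70 points). All of these had an adjusted p of 0.93 or more.

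Saline mice spread more than amphetamine mice in 44 of 73 promoters (60.3%) and in 56.8% of all autosomal promoters, beside the lower coverage of the saline group. The part of coverage in this spread was not tested.

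The members and their promoters touched 584 tested tiles of 5 kb and 92 tested CpG islands. At an adjusted p under 0.05, 0 tiles passed (0.0116% of all tested tiles) and 0 islands (0.00674%). At an unadjusted p under 0.05, 22 tiles passed (3.77%, against 4.24% of all tiles), 10 higher and 12 lower, and 2 islands (2.17%, against 3.99%), those of Foxi2 and Foxo6. Groups did not overlap in 1 of 482 tiles and 1 of 84 islands with reads in every mouse, compared with 0.353% and 0.447% of all autosomal ones. The tile was in an intron of Foxn3 (chr12:99405001-99410000), 42.6 kb inside the deposited start. Amphetamine mice were at 19.9% ± 6.85 (10.9% to 26.4%) and saline mice at 3.53% ± 3.05 (0% to 7.22%), at a coverage of 327.8 and 279. The difference was 16.4 points (9.88 to 22.9), with an adjusted p of 0.48. The tile holding the low Foxn3 island, 15 kb away, was at 4.58% and 4.76%. The island levels of the members were low, with a saline median of 2.70%, against 2.04% over all autosomal islands.

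Females and males were compared over both treatments, since sex was not balanced between the groups. At an adjusted p under 0.05, 0 of 73 promoters and 0 of 77 bodies differed between the sexes, with 0.58% and 0.393% over the whole tables, sex chromosomes included. At an unadjusted p under 0.05, 3 promoters (6.54% of the table) and 5 bodies (6.42% of the table) passed. On the autosomes alone, where all members lie, 0 of 23125 promoters and 1 of 24491 bodies passed the adjusted test, and 1176 and 1336 the unadjusted one. Sox5 was the 1 promoter of 70 whose groups did not overlap (0.462% of autosomal promoters). It was at 5.56% ± 0.941 in 6 females (4.58% to 7.29%) and 2.17% ± 1.48 in 5 males (0.627% to 3.93%), a difference of 3.39 points (1.69 to 5.08, adjusted p = 0.12, limma). Sox14 was lower in females (2.198% against 5.53%, adjusted p = 0.59, limma) and Foxa3 higher (3.94% against 2.11%, adjusted p = 0.75, limma). Both are expressed in restricted territories, Sox14 in interneurons and Foxa3 in endoderm and liver. No body was without overlap between the sexes (0 of 73, against 0.449% of autosomal bodies).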

How the data were processed

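Pancreas DNA of 11 mice was assayed by reduced representation bisulfite sequencing. The submitters' processing notes name Bismark, methylKit, limma and mm10, and versions are not given in the sources used here. The deposited methylation values are fractions that the authors averaged over CpG sites and mice for each region, printed here as percentages. The deposited coverage values are group means that the authors left undefined, read here from their size as coverage added up across all CpG sites in the region. The tables also hold the authors' differences, quotients, p-values, false discovery rates and ranks, which were not used.

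A moderated 2-sided limma test (limma 3.58.1, R 4.3.3) was rebuilt from each group's mean, SD and number of mice with reads (at least 2), with a mean-dependent variance prior and Benjamini-Hochberg adjustment over the whole table at 0.05. It was tested on simulated data. Summaries were made in Python 3.11.15. Promoter windows were counted for CpG sites on the mm10 reference. Named genes were the pancreas regulators, promoters of 20% or more in saline mice, rows under an unadjusted p of 0.05, and, among members with reads in all mice, the highest and lowest difference and body level of each family. The low promoters, long low runs, subgroups, Sox15 and Sox5os2 bodies and the Foxn3 tile were named after their values were seen. The members and lists were chosen with earlier results of these data known. Other tests, filters and thresholds were tried as alternatives.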

Additional observations from a re-analysis of the deposited data

How the results depend on the processing

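No member passed an adjusted p of 0.05 under any alternative run. For treatment, the adjusted p of the 74 named promoter and body values stayed between 0.920 and 1 (limma). These alternatives change the filters and the variance prior and not the group means, so that they do not bear on direction. With an unadjusted p, 1 promoter, 3 bodies, 22 tiles and 2 islands passed for treatment, and 3 promoters and 5 bodies for sex. With a coverage of at least 10, 2 of 71 member promoters passed for treatment at an unadjusted p, and 1018 of 22824 over the table. With reads in all mice the counts were 2 of 70 and 882 of 21012. Means in place of medians gave saline levels of 13.0% and 26.2% for Fox promoters and bodies, 18.3% and 32.5% for Sox and 20.6% and 27.8% for Tbx. The Sox body median of 18.2% moved to 6.46% with a coverage of at least 10, to 6.52% with genes holding both rows and to 5.51% without noncoding transcripts, the last chosen after seeing the data. Tiles inside the gene and outside the promoter gave body medians of 74.2% (17 Fox genes), 77.5% (9 Sox genes) and 49.6% (10 Tbx genes). This leaves out most short genes, and it also moved the level within genes. Foxn2, for example, was at 83.6% by tiles and 23.1% over the gene body, which includes the gene start. Levels by tiles were lower in Foxr1, Sox5os4 and Tbx2 and higher in the other genes with such a tile. The share of autosomal genes in a low run of 10 kb or more was 8.49% with tiles under 10% and 16.1% with tiles under 25%, against 43.8% and 61.6% of the members. No paired analysis was made, because no pairing of mice was given in the sources used here. Leaving out single mice was not run, because the region values are group summaries. With 5 and 6 mice and wide spreads at some promoters, differences of many points cannot be detected there.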

Other observations

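Relatives on the X chromosome were not members. Sox3, a SoxB factor, was at 31.2% ± 8.83 in the promoter of 6 females and 3.81% ± 1.90 in that of 5 males, without overlap (adjusted p = 0.0152, limma), and at 34.0% ± 7.79 and 2.58% ± 1.17 in the body (adjusted p = 0.0030, limma). Foxo4, a forkhead factor of insulin signalling, had 31.5% ± 8.67 at the female promoter against 9.73% ± 7.10 at the male one, also without overlap (adjusted p = 0.12, limma). Between treatments the Sox3 promoter was at 19.4% ± 15.5 in amphetamine and 18.2% ± 17.2 in saline mice.

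Of the antisense transcripts that the symbol rule drops, the body of Foxd2os was at 2.65% ± 1.23 in amphetamine and 7.69% ± 5.20 in saline mice (difference -5.04 points, -10.1 to -0.02, adjusted p = 0.98, limma). The body of Foxo6os was at 84.5% ± 7.95 and 93.6% ± 6.71 (difference -9.09 points, -18.4 to 0.25), next to the Foxo6 body, which was at 11.7% and 9.02%. The bodies of Foxl2os and Sox6os differed by 1.69 points (-2.57 to 5.95) and 0.10 points (-2.78 to 2.97).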
